A study of Rattus norvegicus with 18 samples.

Results

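The genes described here are 10 genes of serine synthesis and of the folate one-carbon cycle, out of 30735 genes in the deposited tables. They were chosen by name for their place in the pathway, and all 10 were found and tested, among 18444 genes that passed a filter on low counts. RNA of the cerebral cortex was sequenced from 18 adult Sprague Dawley rats aged 8 to 10 weeks, with 6 rats and 1 library per rat in each of 3 groups. Subarachnoid hemorrhage (SAH), bleeding into the space around the brain, was made by perforating an artery with a filament passed through the vessel. The sham group had the same operation without the perforation, the SAH 1d group was sampled 1 day after the bleeding, and the SAH 7d group 7 days after it. No group carried a genetic change or a drug treatment named in the labels, and none of the sources states whether male or female rats were used. The labels name the cortex of both hemispheres and the methods of the study the cortex of the operated side, so how much uninjured tissue each library holds is not known. Lysed tissue was sequenced as a whole, and fewer cells of a type and less RNA per cell cannot be told apart.

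The libraries held 27.27 to 38.27 counts in units of 1e+06. Markers of neurons, oligodendrocytes and astrocytes were present in all groups, as the label of cortex requires. In monocyte and macrophage markers 2 libraries stood apart. In SAH 7d-5 the summed level of 5 monocyte and macrophage markers was 8820 CPM (counts per 1e+06 counts of the library), against at most 280 CPM in the other SAH 7d libraries, and its neuron markers summed to 2651 CPM, the lowest of all groups. In SAH 1d-3 the monocyte and macrophage sum was 518 CPM, against at most 135 CPM in the other SAH 1d libraries. For several genes the value or call without SAH 1d-3 or SAH 7d-5 is given as well. Other libraries stood out in other markers. Of the sham group, sham-1 had the highest astrocyte sum (5027 CPM, next 3776 CPM) and the lowest neuron sum (6236 CPM). The 2 highest choroid plexus sums at 1 day were 1135 CPM (SAH 1d-6) and 759 CPM, against a group median of 43.1 CPM.

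Serine is made in the cytosol from an intermediate of glycolysis in a chain of steps run by Phgdh, Psat1 and Psph. Serine hydroxymethyltransferase, in the cytosol as Shmt1 and in mitochondria as Shmt2, then passes a carbon from serine to tetrahydrofolate and leaves glycine. Mitochondrial enzymes such as Mthfd2 and Mthfd1l turn that carbon into formate, which leaves for the cytosol and feeds the synthesis of purines, thymidylate and methionine. Folate enters cells through carriers such as Slc19a1, is kept there by the glutamate tail that Fpgs adds, and loses its formyl carbon as carbon dioxide through Aldh1l1. In the brain, serine synthesis and Aldh1l1 are known mainly from astrocytes.

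The promoters of 4 of these genes are shown as contrasts within the pathway. Mthfd2 and Shmt2 had the largest rises, Shmt1 makes the same reaction as Shmt2 in another compartment, and Aldh1l1 was the 1 gene that fell. Each stretch runs 5′ to 3′ on the strand of the gene, from 250 bases before the start of the transcript to 50 bases after it, and comes from RefSeq on the GRCr8 build, which is not the build of the deposited counts. The Mthfd2 stretch lies on the minus strand at chr4:117380301-117380600, that of Shmt2 on the minus strand at chr7:65249518-65249817, that of Shmt1 on the minus strand at chr10:45990292-45990591 and that of Aldh1l1 on the plus strand at chr4:124616970-124617269. Capitals mark matches to 5 motifs searched on both strands, which do not overlap one another in these 4 stretches.
Mthfd2: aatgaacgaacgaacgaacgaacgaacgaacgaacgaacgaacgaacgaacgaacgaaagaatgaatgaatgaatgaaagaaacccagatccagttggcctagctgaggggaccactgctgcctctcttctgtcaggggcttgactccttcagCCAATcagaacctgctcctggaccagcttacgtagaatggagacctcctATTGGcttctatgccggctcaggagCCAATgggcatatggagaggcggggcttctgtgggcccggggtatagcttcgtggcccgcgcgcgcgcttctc
Shmt2: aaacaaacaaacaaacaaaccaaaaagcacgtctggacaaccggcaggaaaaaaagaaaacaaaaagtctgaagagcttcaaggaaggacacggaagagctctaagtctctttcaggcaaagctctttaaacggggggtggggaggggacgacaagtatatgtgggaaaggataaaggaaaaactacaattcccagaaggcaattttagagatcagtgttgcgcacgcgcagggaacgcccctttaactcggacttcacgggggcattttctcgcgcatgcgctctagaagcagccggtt
Shmt1: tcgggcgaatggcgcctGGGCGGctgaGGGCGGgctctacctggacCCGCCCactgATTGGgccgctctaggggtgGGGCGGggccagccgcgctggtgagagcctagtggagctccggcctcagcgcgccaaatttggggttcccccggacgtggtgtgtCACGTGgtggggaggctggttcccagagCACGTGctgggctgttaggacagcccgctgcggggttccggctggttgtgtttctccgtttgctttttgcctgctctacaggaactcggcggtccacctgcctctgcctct
Aldh1l1: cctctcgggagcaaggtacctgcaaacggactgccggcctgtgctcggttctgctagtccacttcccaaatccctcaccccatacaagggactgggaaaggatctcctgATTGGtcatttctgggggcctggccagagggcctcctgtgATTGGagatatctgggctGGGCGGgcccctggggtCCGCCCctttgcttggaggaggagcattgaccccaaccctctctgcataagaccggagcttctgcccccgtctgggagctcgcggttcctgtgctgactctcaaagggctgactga

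The core TGATGNAA of the element bound by ATF4 with C/EBP factors was in 0 of the 10 promoters, against 3.98% of the 33469 promoters of the table. The E-box CACGTG was in 1 of 10, Shmt1, which holds it at 2 places, against 6.42% of all promoters. The antioxidant response core TGACNNNGC was in Phgdh and Slc19a1, against 12.1% of all. The GC box GGGCGG and the CCAAT box were added to the search after the data had been seen. GGGCGG was in 7 of 10 promoters (33.1% of all) and CCAAT in 6 of 10 (37.5% of all). Mthfd2 held 3 CCAAT boxes and no GGGCGG, Shmt1 held 4 GGGCGG and 1 CCAAT, Aldh1l1 held 2 of each, and Shmt2 held no match to any of the 5 motifs. The 4 printed stretches had 23 (Mthfd2), 15 (Shmt2), 23 (Shmt1) and 10 (Aldh1l1) CpG pairs, against a median of 7 over all promoters. A match is a run of letters and no measured binding.

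Levels are given in FPKM, the fragments of a gene scaled to its length in kilobases and to the mapped reads of the library, a unit in which genes can be compared. In the sham cortex the order of the medians was Psat1, Phgdh, Psph, Shmt2, Mthfd1l, Aldh1l1, Slc19a1, Fpgs, Mthfd2 and Shmt1. Psat1 had a median of 77.8 FPKM and Phgdh of 38.6 FPKM, and their ranges overlapped neither each other nor that of Psph below them. The ranges of Psph, Shmt2, Mthfd1l and Aldh1l1 overlapped from each gene to the next, as did those of Slc19a1, Fpgs and Mthfd2. Shmt1 was lowest with a median of 0.935 FPKM, and its range lay below that of Mthfd2. At 1 day the order of the medians was Psat1, Phgdh, Shmt2, Psph, Mthfd2, Mthfd1l, Fpgs, Slc19a1, Aldh1l1 and Shmt1. Mthfd2 thus stood at place 9 in sham and place 5 at 1 day, and Aldh1l1 at places 6 and 9. At 7 days the order was that of the sham group.

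**Figure D1:**
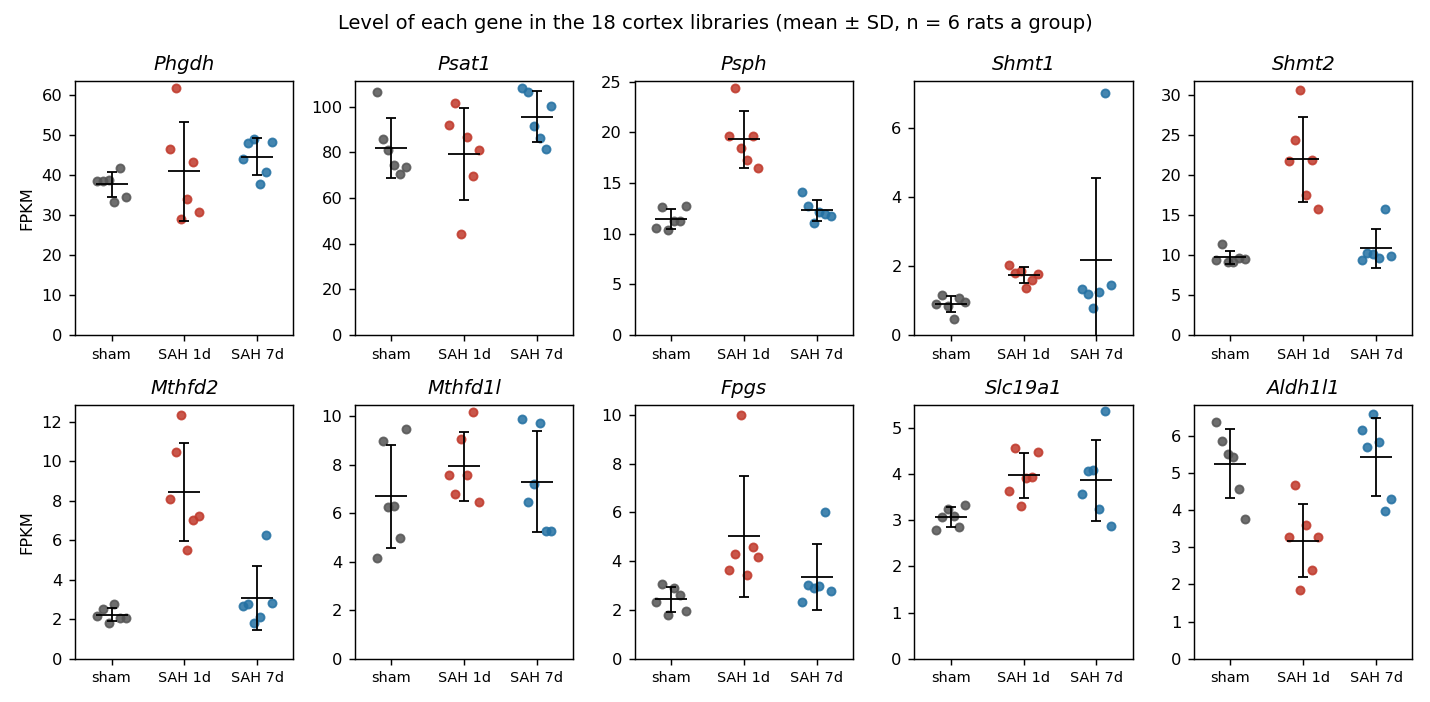
FPKM of each gene (vertical axis, linear from 0, with its own scale in each panel) by group. Points are libraries, bars are the mean ± SD of 6 rats, and the lower bar of Shmt1 at 7 days runs below 0. Psph, Shmt1, Shmt2, Mthfd2 and Fpgs lay higher in all SAH 1d libraries than in any sham library, and 1 SAH 7d library stands far above the rest for Shmt1 (7.01 FPKM).

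SAH 1d versus sham asks how the pathway stood at the acute time point. Of the 10 genes, 5 rose (Psph, Shmt1, Shmt2, Mthfd2 and Fpgs), 1 fell (Aldh1l1) and 4 did not pass the test (Phgdh, Psat1, Mthfd1l and Slc19a1). The mitochondrial enzymes Mthfd2 and Shmt2 had the largest changes, and they were the 2 genes past the 2-fold threshold that the study used. Without SAH 1d-3, Shmt2 stood at 0.94 on the log2 scale, below that threshold, and Mthfd2 at 1.64. A gene was called at a Benjamini-Hochberg adjusted p under 0.05 over all 18444 genes in edgeR's quasi-likelihood test. By that rule 14.9% of all tested genes were higher and 10.5% lower, and with the 2-fold threshold 5.57% were higher and 1.06% lower. The median log2 fold change of the 10 genes was 0.44, and that of all tested genes 0.01. The study names Shmt2, Mthfd2 and Fpgs in its own tables of these samples, so their direction here is not independent evidence.

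In the chain that makes serine, the first and second enzymes did not pass the test and the last rose. Phgdh, which oxidises 3-phosphoglycerate in the first step, ranged from 33.3 to 41.8 FPKM in sham (median 38.6), from 29.0 to 61.8 at 1 day (median 38.7) and from 37.7 to 49.0 at 7 days (median 46.0). Its SAH 1d values lay on both sides of the sham range, with SAH 1d-3 lowest and SAH 1d-2 highest. The log2 fold change at 1 day was 0.00 (SE 0.15, edgeR adjusted p = 0.992). Psat1, the aminotransferase of the second step, ranged from 70.4 to 106.6 FPKM in sham (median 77.8), from 44.3 to 101.5 at 1 day (median 83.8) and from 81.5 to 108.1 at 7 days (median 96.0). SAH 1d-3 at 44.3 FPKM and SAH 1d-5 at 69.6 FPKM lay below the sham range, and the other 4 SAH 1d libraries lay within it. Its log2 fold change at 1 day was -0.18 (SE 0.17, edgeR adjusted p = 0.467), and -0.06 (adjusted p = 0.760) without SAH 1d-3.

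Psph, the phosphatase that releases serine in the last step, ranged from 10.3 to 12.7 FPKM in sham (median 11.3), from 16.5 to 24.4 at 1 day (median 19.1) and from 11.1 to 14.1 at 7 days (median 12.1). The SAH 1d values lay above every value of both other groups. Its log2 fold change at 1 day was 0.64 (SE 0.10, edgeR adjusted p = 9.28e-04). The ratio of Psph to Phgdh in FPKM was 0.266 to 0.369 in sham and 0.395 to 0.635 at 1 day, so the last enzyme stood higher against the first in every SAH 1d library.

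Both serine hydroxymethyltransferases rose at 1 day. Shmt2, the mitochondrial form, ranged from 9.13 to 11.3 FPKM in sham (median 9.43), from 15.7 to 30.6 at 1 day (median 21.8) and from 9.33 to 15.8 at 7 days (median 10.03). No SAH 1d value fell into the sham range, and SAH 1d-3 was the highest. The log2 fold change was 1.07 (SE 0.14, edgeR adjusted p = 3.61e-04), and 0.94 (adjusted p = 5.86e-05) without SAH 1d-3. Shmt1, the cytosolic form, had between 34 and 153 counts in the sham and SAH 1d libraries, so its values are less precise than those of Shmt2 with 544 to 2540 counts. It ranged from 0.471 to 1.18 FPKM in sham (median 0.935) and from 1.38 to 2.03 at 1 day (median 1.78), with no overlap. Its log2 fold change was 0.83 (SE 0.20, edgeR adjusted p = 0.0098), and the adjusted p was 0.181 in a fit of all 18 libraries, which takes in the spread of the SAH 7d group. The ratio of Shmt2 to Shmt1 overlapped between sham (9.10 to 19.5) and SAH 1d (8.91 to 16.5).

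Mthfd2, the mitochondrial dehydrogenase and cyclohydrolase that is low in most adult tissues, had the largest change of the 10 genes at 1 day. It ranged from 1.81 to 2.76 FPKM in sham (median 2.13), from 5.52 to 12.3 at 1 day (median 7.68) and from 1.82 to 6.25 at 7 days (median 2.71). The lowest SAH 1d library held more than the highest sham library, and SAH 1d-3 was again the highest. The log2 fold change was 1.79 (SE 0.19, edgeR adjusted p = 6.01e-05), and 1.64 (adjusted p = 1.13e-05) without SAH 1d-3. Mthfd1l, the mitochondrial synthetase that frees formate in the step after Mthfd2, ranged from 4.16 to 9.48 FPKM in sham (median 6.29), from 6.47 to 10.2 at 1 day (median 7.58) and from 5.28 to 9.90 at 7 days (median 6.83). Its groups overlapped, with a log2 fold change of 0.14 (SE 0.20, edgeR adjusted p = 0.626). The ratio of Mthfd2 to the cytosolic enzyme Mthfd1 was 0.175 to 0.257 in sham and 0.415 to 0.790 at 1 day, and the ratio to the related mitochondrial enzyme Mthfd2l was 1.49 to 3.68 and 3.02 to 7.08. The first ratio did not overlap between the groups and the second did.

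Of the genes that bring folate into cells and hold it there, Fpgs rose and Slc19a1 did not pass the test. Fpgs, which adds glutamates to folate, ranged from 1.78 to 3.08 FPKM in sham (median 2.48), from 3.44 to 9.997 at 1 day (median 4.23) and from 2.31 to 6.03 at 7 days (median 2.94). The SAH 1d values lay above all sham values, and SAH 1d-3 with 9.997 FPKM stood far from the next library at 4.58 FPKM. The log2 fold change was 0.94 (SE 0.26, edgeR adjusted p = 0.0199), and it was 0.60 (adjusted p = 0.00901) without SAH 1d-3. Slc19a1, the reduced folate carrier, ranged from 2.79 to 3.34 FPKM in sham (median 3.09), from 3.31 to 4.57 at 1 day (median 3.92) and from 2.87 to 5.37 at 7 days (median 3.81). The ranges of sham and SAH 1d met at their ends. Its log2 fold change was 0.23 (SE 0.10, edgeR adjusted p = 0.108), and the adjusted p was 0.0455 without SAH 1d-3 and 0.0394 in limma voom.

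Aldh1l1, the cytosolic dehydrogenase of 10-formyl-tetrahydrofolate, fell. It ranged from 3.77 to 6.38 FPKM in sham (median 5.46), from 1.86 to 4.68 at 1 day (median 3.27) and from 3.97 to 6.60 at 7 days (median 5.76). The sham and SAH 1d ranges overlapped, with SAH 1d-3 lowest. The log2 fold change was -0.85 (SE 0.20, edgeR adjusted p = 0.0080), and -0.74 (adjusted p = 0.00563) without SAH 1d-3. Of 8 other astrocyte markers, 2 rose at 1 day (Gfap, a filament protein of reactive astrocytes, by 3.003 on the log2 scale, and Sox9 by 0.80), 0 fell and 6 did not pass. The summed level of the 8 markers was 3130 to 5027 CPM in sham and 5934 to 7349 CPM at 1 day. Their median log2 fold change was -0.14, and the median of Gfap alone went from 116 FPKM in sham to 1063 FPKM at 1 day. Markers of neurons fell in 7 of 7 at 1 day, with sums of 6236 to 9791 CPM in sham and 5290 to 6624 CPM at 1 day. Beside the 5 genes that rose, the sum of 5 endothelial markers was 132 to 210 CPM in sham and 248 to 369 CPM at 1 day, and 2 of the 5 rose. The sum of 5 neutrophil markers was 1.92 to 4.92 CPM in sham and 6.49 to 64.7 CPM at 1 day, and both that were tested rose. Of 5 monocyte and macrophage markers 3 rose, with sums of 50.7 to 87.9 CPM in sham and 86.4 to 518 CPM at 1 day. Of 5 choroid plexus markers 3 rose (sums of 4.64 to 66.5 CPM in sham and 24.7 to 1135 CPM at 1 day), and of 5 meningeal fibroblast markers 1 (110 to 256 CPM and 195 to 350 CPM). Of 6 microglia markers 0 rose and 1 fell, with sums of 258 to 413 CPM in sham and 328 to 381 CPM at 1 day. Of 6 oligodendrocyte markers and 3 red cell markers 0 passed, and of 3 tested T cell markers 1 rose. The part of cell makeup in the change of Aldh1l1 or of any other gene was not tested. The ratio of Mthfd2 to Aldh1l1, 2 enzymes that act on the carbon carried by folate, was 0.329 to 0.554 in sham and 1.53 to 6.63 at 1 day.

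In 5 of the 10 genes all SAH 1d libraries lay above all sham libraries in CPM, and in 0 all lay below. Among all tested genes 13.2% were separated upward in this way and 1.89% downward. FPKM of all tested genes stood higher at 1 day by a median of 0.11 on the log2 scale, a shift that the fitted fold changes do not carry. Against that shift the median of the 10 genes on log2(FPKM + 0.1) was 0.55.

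**Figure D2:**
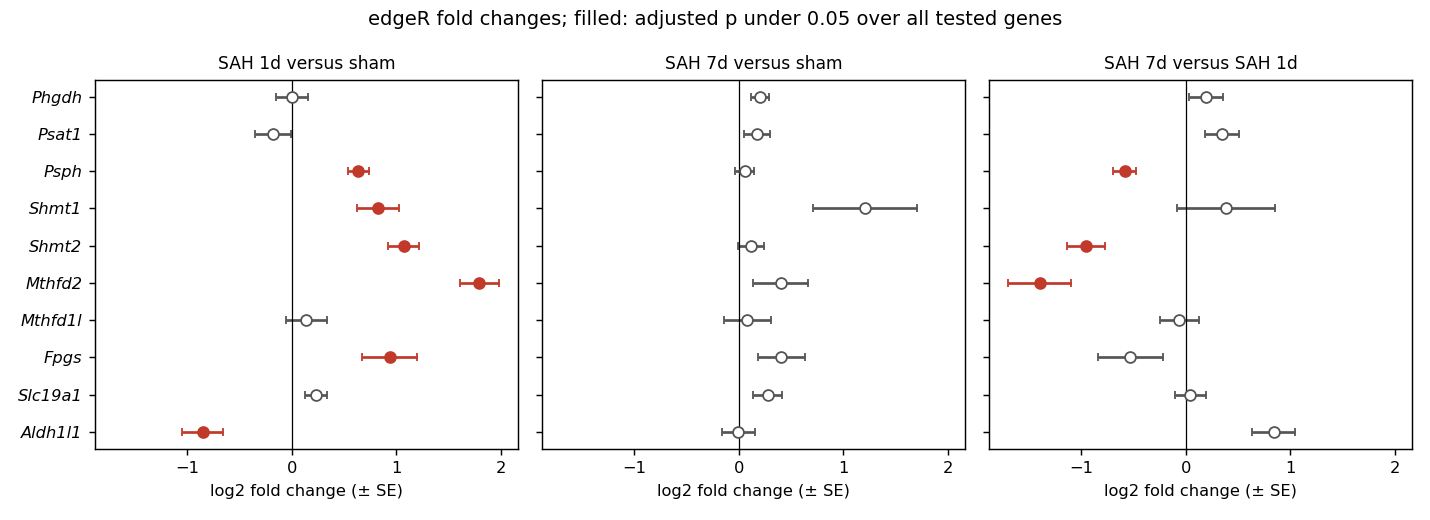
Log2 fold change (horizontal axis) with its SE from edgeR for each gene (vertical axis) in the 3 comparisons. Filled red points passed an adjusted p under 0.05: 6 of 10 genes in SAH 1d versus sham, 0 in SAH 7d versus sham and 3 in SAH 7d versus SAH 1d.

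SAH 7d versus sham asks what remained a week later. None of the 10 genes passed the test in either direction, and edgeR called 0% of all tested genes higher and 0% lower. At an unadjusted p under 0.05 there were 2842 genes, among them 2 of the 10, Phgdh and Shmt1. DESeq2 called 459 genes and limma voom 2, with 0 of the 10 in both. In 0 of the 10 genes did the groups lie apart in either direction, against 1.43% of all tested genes upward and 0.217% downward. This comparison shares its sham libraries with that of 1 day.

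The median log2 fold change of the 10 genes at 7 days was 0.19, and that of all genes 0.00. Shmt1 had the largest value, 1.21 with an SE of 0.50 (edgeR adjusted p = 0.288). It ranged from 0.784 to 7.01 FPKM at 7 days (median 1.29), and 5 of the 6 libraries lay at or below 1.46 FPKM. Without SAH 7d-5 its log2 fold change was 0.38 (adjusted p = 0.528). Mthfd2 was at 0.40 (SE 0.26), Fpgs at 0.41 (SE 0.23) and Slc19a1 at 0.28 (SE 0.14), each with its highest value in SAH 7d-5. Without that library they were at 0.08 (Mthfd2), 0.17 (Fpgs) and 0.18 (Slc19a1), and their edgeR adjusted p was 0.542 or more. Phgdh was at 0.20 (SE 0.08, edgeR adjusted p = 0.295) and Psat1 at 0.17 (SE 0.12). The others were Shmt2 at 0.11 (SE 0.12), Mthfd1l at 0.08 (SE 0.23), Psph at 0.06 (SE 0.09) and Aldh1l1 at 0.00 (SE 0.16). Aldh1l1, which had fallen at 1 day, ranged from 3.97 to 6.60 FPKM at 7 days beside 3.77 to 6.38 FPKM in sham.

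SAH 7d versus SAH 1d asks whether the genes moved between the time points. Psph, Shmt2 and Mthfd2 were lower at 7 days, 0 of the 10 were higher, and 7 did not pass. Among all tested genes 1.08% were lower and 0.282% higher. Mthfd2 fell by 1.39 on the log2 scale (SE 0.30, edgeR adjusted p = 0.0425). Shmt2 fell by 0.96 on the log2 scale (SE 0.18, edgeR adjusted p = 0.0228), and Psph fell by 0.58 on the log2 scale (SE 0.11, edgeR adjusted p = 0.0208). Psph was the 1 gene whose groups did not overlap, lower at 7 days as in 3.18% of all tested genes (0.477% lay apart in the other direction). For Shmt2 and Mthfd2 it was SAH 7d-5, at 15.8 and 6.25 FPKM, that reached into the SAH 1d range, while the next SAH 7d values were 10.3 and 2.84 FPKM.

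These calls lie near the threshold with all 12 libraries in the fit. Without SAH 7d-5 the log2 fold changes were -1.73 for Mthfd2 (edgeR adjusted p = 0.00137), -1.09 for Shmt2 (0.00288) and -0.58 for Psph (0.0106). Without SAH 1d-3 they were -1.24 (0.0610), -0.83 (0.0247) and -0.59 (0.0217) in the same order. Psph lost its call without any of 6 libraries (SAH 1d-1, 1d-5, 7d-2, 7d-3, 7d-4 or 7d-6, adjusted p 0.0508 to 0.0613), Shmt2 without any of 8 (those 6, SAH 1d-2 or 7d-1, adjusted p 0.0522 to 0.0667), and Mthfd2 without any of 10 (all but SAH 1d-4 and 7d-5, adjusted p 0.0610 to 0.111). The fitted falls stayed between 0.55 and 0.59 for Psph, 0.92 and 0.96 for Shmt2 and 1.24 and 1.44 for Mthfd2 in those fits, written as sizes on the log2 scale. Aldh1l1 stood 0.84 higher at 7 days (SE 0.20, edgeR adjusted p = 0.0662), and 0.92 higher without SAH 7d-5 (adjusted p = 0.0170), where it passed. Fpgs had a log2 fold change of -0.53 (SE 0.31, adjusted p = 0.458), or -0.19 without SAH 1d-3. It was called lower under limma voom (-0.46, adjusted p = 0.0457) and without both SAH 1d-3 and 7d-5 (-0.45, adjusted p = 0.0291). The log2 fold change of Shmt1 was 0.38 (SE 0.47, adjusted p = 0.754), which became -0.46 (adjusted p = 0.132) without SAH 7d-5. Psat1 was at 0.34, Phgdh at 0.19, Slc19a1 at 0.04 and Mthfd1l at -0.06, all with an edgeR adjusted p of 0.344 or more.

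**Figure D3:**
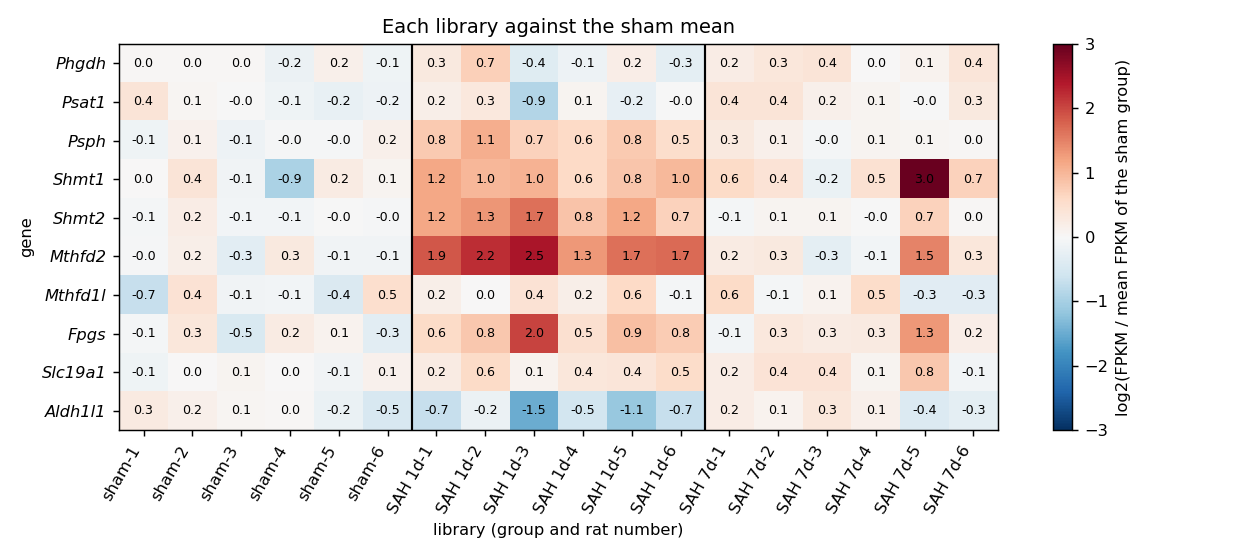
Log2 of each library's FPKM over the mean FPKM of the sham group, with genes on the vertical axis and the 18 libraries on the horizontal axis. Red is above and blue below the sham mean, and vertical lines part the groups. Mthfd2, Shmt2, Shmt1, Psph and Fpgs are red across all 6 SAH 1d libraries, and SAH 7d-5 is the 1 library of its group with Shmt1 at 3.0 and Mthfd2 at 1.5.

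The 2 libraries that stood apart in monocyte and macrophage markers were also at an end of their group in much of the pathway. SAH 1d-3 was the highest of its group for 3 of the 10 genes (Shmt2, Mthfd2 and Fpgs) and the lowest for 4 (Phgdh, Psat1, Slc19a1 and Aldh1l1). SAH 7d-5 was the highest of its group for 5 (Shmt1, Shmt2, Mthfd2, Fpgs and Slc19a1) and the lowest for 2 (Psat1 and Aldh1l1). Both libraries had the highest monocyte and macrophage sums of their groups. The part of those cells in the values was not tested. Without SAH 1d-3 the same number of the 10 genes fell at 1 day (1) and 6 rose, with Slc19a1 as the added gene.

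Other genes of the pathway were taken from lists named by function. Their counts at 1 day stand beside 14.9% of all tested genes higher and 10.5% lower. The other 13 tested enzymes of serine and glycine metabolism, of 15 listed, had 0 called genes in all 3 comparisons and a median log2 fold change of -0.13 at 1 day. The 2 with the smallest p were Sardh, which breaks down sarcosine, at -0.48 (SE 0.17, edgeR adjusted p = 0.0538) and Sdsl, a serine dehydratase-like enzyme, at -0.44 (SE 0.23, adjusted p = 0.166). Gldc of the glycine cleavage system was at -0.08 (SE 0.12), a gene named outside the rule for its place in the pathway.

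Of 18 other folate enzymes and carriers, 4 rose at 1 day, 0 fell and 14 did not pass. Atic, which closes the purine ring with a formyl carbon from folate, ranged from 13.9 to 16.7 FPKM in sham and from 23.0 to 30.0 at 1 day, a log2 fold change of 0.64 (SE 0.07, edgeR adjusted p = 9.53e-05). Aldh1l2, the mitochondrial counterpart of Aldh1l1, went from 0.048 to 0.202 FPKM in sham to 0.2504 to 1.32 at 1 day, a log2 fold change of 2.52 (SE 0.44, adjusted p = 0.00192). SAH 1d-3 was its highest library, and without it the log2 fold change was 2.22 (edgeR adjusted p = 0.00154). The cytosolic and the mitochondrial form thus moved in opposite directions, and their ratio, Aldh1l2 to Aldh1l1, was 0.00884 to 0.0323 in sham and 0.104 to 0.712 at 1 day. The second highest ratio at 1 day was 0.230. With a sham median of 0.099 FPKM for Aldh1l2, the ratio in sham is imprecise. Folr1, a folate receptor named here although it did not pass, had the largest value of the list, 3.38 (SE 1.18, adjusted p = 0.0506), and passed without SAH 1d-3 (3.63, adjusted p = 0.0227). Its highest library was SAH 1d-6 with 18.5 FPKM, the library that also had the highest sum of 5 choroid plexus markers, Folr1 among them (1135 CPM, against at most 66.5 CPM in sham).

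Of 10 transporters of serine and glycine, 2 rose at 1 day and 0 fell. Slc38a2, a sodium-coupled neutral amino acid transporter, ranged from 34.0 to 50.9 FPKM in sham and from 57.0 to 75.3 at 1 day, a log2 fold change of 0.60 (SE 0.11, edgeR adjusted p = 0.00183). Slc1a5, an exchanger of glutamine and serine, ranged from 0.925 to 1.35 FPKM in sham and from 2.42 to 9.64 at 1 day, with SAH 1d-3 highest, a log2 fold change of 1.76 (SE 0.32, adjusted p = 0.00215), or 1.30 (SE 0.14, adjusted p = 3.67e-05) without SAH 1d-3. Without that library 2 more transporters passed, both lower, Slc7a10 at -0.37 (adjusted p = 0.0141) and Slc38a3 at -0.34 (adjusted p = 0.0204).

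ATF4 is a transcription factor of the amino acid response, which is known to switch on serine synthesis and mitochondrial folate genes. Of 17 genes listed as its response, 12 rose at 1 day, 0 fell and 5 did not pass, with a median log2 fold change of 0.89. Atf4 itself, on the list and named outside the rule, ranged from 111 to 154 FPKM in sham. At 1 day it ranged from 133 to 400 FPKM, with SAH 1d-3 highest. Its mean was 136 FPKM in sham and 198 FPKM at 1 day with all libraries, and its median 143 and 159 FPKM. Without SAH 1d-3 its log2 fold change was 0.09 (edgeR adjusted p = 0.592). Chac1, which breaks down glutathione, ranged from 4.20 to 7.42 FPKM in sham and from 12.3 to 23.1 at 1 day, a log2 fold change of 1.45 (SE 0.16, edgeR adjusted p = 8.89e-05). Sesn2, a stress-induced sensor of leucine, was at 1.48 (SE 0.17, adjusted p = 1.33e-04) and the transcription factor Atf5 at 1.08 (SE 0.13, adjusted p = 2.00e-04). Trib3, a pseudokinase of the same response, was at 4.08 (SE 0.53, adjusted p = 2.80e-04) from at most 0.192 FPKM in sham. At 7 days against 1 day, 4 of the 17 fell (Chac1, Sesn2, Atf5 and the amino acid transporter Slc7a5) and 0 rose. Without SAH 7d-5, 11 of the 17 fell and 0 rose. Phgdh and Psat1, themselves known targets of ATF4, had log2 fold changes of 0.00 and -0.18 at 1 day and did not pass. The part of ATF4 in any of these changes was not tested. In the proliferation list 6 of 8 genes rose at 1 day, with Mcm2 at 1.67 (SE 0.16, adjusted p = 3.81e-05), Mcm5 at 2.84 (SE 0.30, adjusted p = 6.22e-05), Pcna at 0.61 (SE 0.16, adjusted p = 0.0135) and Rrm2 at 1.24 (SE 0.33, adjusted p = 0.0155). At 7 days against sham none of the genes in these 5 lists passed. The median log2 fold change of the proliferation list was 1.69 at 7 days, beside 1.11 at 1 day. All 8 of its genes had their highest SAH 7d value in SAH 7d-5, such as Mcm5 (7.53 FPKM, next 0.932) and Rrm2 (10.8 FPKM, next 1.14). Without that library these 2 genes were at 0.31 and 0.35. The part of proliferation in the values of SAH 7d-5 was not tested.

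**Figure D4:**
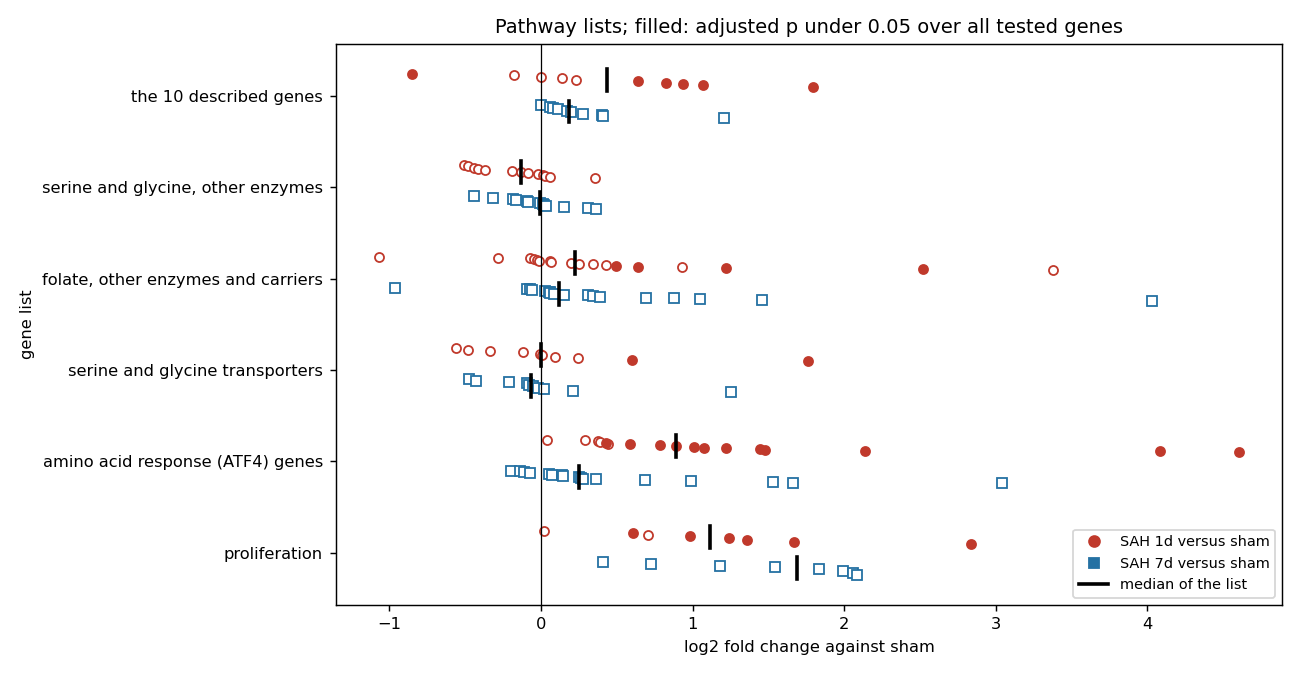
Log2 fold change against sham (horizontal axis) of the 10 genes and of the 5 other lists (vertical axis), with circles for SAH 1d and squares for SAH 7d and a black bar at the median. Filled symbols passed an adjusted p under 0.05: 5 higher and 1 lower of the 10 genes at 1 day, 0 of 13 other serine and glycine enzymes and 12 of 17 ATF4 genes, and none in any list at 7 days.

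The genes with the most similar pattern were found for 1 gene of each branch by Spearman's rho of log2 CPM over the 18 libraries, among 14290 genes, as a description. Points from the same library share its depth, and the groups themselves add to every value, so rho after removing the group means is given too. Closest to Phgdh were Sema3b (0.79, and 0.75 with group means removed), Ccdc3 (0.75 and 0.31) and Hpd (0.75 and 0.68). Closest to Mthfd2 were Rer1 (0.94 and 0.82), Tbp (0.93 and 0.64) and Lap3 (0.93 and 0.83). Closest to Aldh1l1 were Igdcc4 (0.94 and 0.74), Bcan (0.91 and 0.72) and Sfxn5 (0.89 and 0.75).

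Some values rest on sequence that other genes share. The RefSeq table names 6 pseudogenes of Phgdh, 1 of Psat1 and 1 of Shmt2, and how reads with several places in the genome were counted is not given in the sources used here. Shmt2 overlaps Ndufa4l2 in that table, Mthfd1l overlaps the pseudogene Mapre1-ps1 and the locus LOC120100178, and the kit does not mark strand. Ndufa4l2 itself had 33 to 132 counts per library, against 544 to 2540 for Shmt2.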

How the data were processed

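Each of the 18 libraries holds the cortical RNA of a different rat. The authors deposited a table of whole-number counts per gene, not normalized, and a table of FPKM values that the authors computed from those reads. Their methods name the rat build Rnor_6.0, and the identifiers are rat Ensembl ones. The submitters' processing notes name fastp, HISAT2, DESeq2 1.16.1 and a mouse build, which does not match the identifiers. The counting program is not given in the sources used here. Replicates were not pooled, and no columns of the authors' own comparisons were used. Libraries were grouped by their column names, which equal the deposited descriptions, whereas SAH libraries carry different codes as titles. Totals were 27.27 to 38.27 counts in units of 1e+06, and no pair of libraries in a group agreed within counting noise (lowest chi-square per gene 13.5).

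The main test on the counts was that of edgeR 4.0.16, run under R 4.3.3. The low-count filter was filterByExpr over the 18 libraries (18444 of 30735 kept, 3100 of them loci without an Ensembl identifier), scaled by TMM, and compared over 12 libraries at a time by the two-sided quasi-likelihood F test. SEs were taken from the fold change and the F value. Alternatives were DESeq2 1.42.0, limma 3.58.1, other filters, scalings and sets of libraries. The pathway lists without SAH 1d-3 or SAH 7d-5 were added after seeing the data, and genes named only there were chosen after their values were seen. The fits were also run on simulated counts in which no library stood apart, so that check does not cover libraries such as SAH 1d-3 and SAH 7d-5. Figures and summaries used Python 3.11.15, numpy 2.4.6, pandas 2.3.3 and matplotlib 3.10.9. The genes and lists were chosen with earlier results of these data known. All 10 genes are named, and from each other list at most 4 called genes by smallest adjusted p at 1 day, or the 2 with the smallest p where none was called. Some genes that this rule would name are not reported here. Promoters came from RefSeq (GRCr8), and the planned protein sequences of Shmt1 and Shmt2 were not used here.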

Additional observations from a re-analysis of the deposited data

Results flagged for a closer look

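In 6 of 30 combinations of gene and group, the highest library stood apart from the other 5 by more than the 95% limit of Dixon's test, which chance alone gives in about 1 in 20. Of these, 4 were in SAH 7d-5, with 7.01 FPKM for Shmt1, 15.8 FPKM for Shmt2, 6.25 FPKM for Mthfd2 and 6.03 FPKM for Fpgs. The other two were Shmt2 in sham-2 (11.3 FPKM) and Fpgs in SAH 1d-3 (9.997 FPKM). SAH 7d-5 also had the highest monocyte and macrophage, T cell (322 CPM) and meningeal fibroblast (3939 CPM) sums of its group, and their part in these values was not tested.

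The change against sham differed between the 2 time points, tested as SAH 7d versus SAH 1d, for Psph (log2 difference -0.58), Shmt2 (-0.96) and Mthfd2 (-1.39). Each was lower at 7 days.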

How the results depend on the processing

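At 1 day, Psph, Shmt2, Mthfd2 and Aldh1l1 were called under all 23 alternatives, Shmt1 under 22 (adjusted p = 0.181 with all 18 libraries in 1 fit), Fpgs under 22 (adjusted p = 0.0656 with the replicate block) and Slc19a1 under 5. At 7 days against sham none of the 10 was called under any of the 23. In the 2 comparisons with sham, leaving out SAH 1d-3 and 7d-5 together is leaving out the 1 of them that each holds. Group levels as means and as medians were compared by a limit of 1 SD, which a mean and a median can never exceed, so that check could not fail. Shmt1 at 7 days had a mean of 2.17 FPKM and a median of 1.29 FPKM (SD 2.38).

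In SAH 7d versus SAH 1d, 0 of the 10 genes were called lower with the replicate block, and leaving out 1 library, or SAH 1d-3 with SAH 7d-5, gave 0 to 4 lower and 0 to 1 higher. Fpgs was the gene added under limma voom and without both of those libraries. One gene, Aldh1l1, was called higher (1 of 10) under DESeq2, limma voom, the fit of 18 libraries, without SAH 7d-5 and also with SAH 1d-3 left out beside it. Of all genes, 52 were called higher and 200 lower in this comparison. The counts were 367 and 645 under DESeq2, 1175 and 1544 under limma voom, 236 and 543 with all 18 libraries, 3 and 26 with the replicate block, and 1130 and 1382 without both SAH 1d-3 and 7d-5. With no filter 31 were higher, and limma on log2(FPKM + 1), on log2(FPKM + 0.1) and on log2(FPKM + 1) unfiltered called 376, 385 and 431 lower. Leaving out 1 library gave 11 to 587 higher and 91 to 958 lower, with both highest counts without SAH 7d-5. In SAH 1d versus sham (2748 higher, 1936 lower), all 18 libraries gave 1509 and 953, limma voom 3016 lower, and limma on FPKM 983, 956 and 679 lower in the same order. The share of higher genes among those called was 58.7% in edgeR and 78.9% with log2(FPKM + 1) (20.6% and 9.2% for SAH 7d versus SAH 1d). Leaving out 1 library gave 2102 to 2846 higher and 1413 to 2406 lower. In SAH 7d versus sham (0 and 0), DESeq2 called 406 higher and 53 lower, limma voom 2 higher, the fit of 18 libraries 8 and 1, limma on unfiltered FPKM 1 lower, and leaving out 1 library 0 to 3 higher, with 3 without SAH 7d-4. The cause of these differences was not tested.

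The values whose sign turned were not called. Shmt1 in SAH 7d versus SAH 1d (0.38) turned by the most, and the others were at most 0.14 in size as reported. At 1 day Phgdh (0.00) was -0.0066 with DESeq2 size factors, -0.0066 under DESeq2 and -0.039 with the replicate block, and without single libraries it spanned -0.137 to 0.078. Mthfd1l was -0.019 under limma voom. At 7 days against sham, Shmt2 was -0.018 under limma voom and -0.0094 (without SAH 7d-5) to 0.156 without single libraries, and Mthfd1l was -0.023 to 0.215. Aldh1l1 (0.00) was 0.092 under limma voom, 0.0059 with at least 10 counts in every library, 0.036 with log2(FPKM + 1), filtered or not, 0.042 with log2(FPKM + 0.1) and -0.079 to 0.090 without single libraries. In SAH 7d versus SAH 1d, Shmt1 was -0.44 under limma voom, -0.10 with the replicate block, -0.0056 with log2(FPKM + 1), filtered or not, -0.099 with log2(FPKM + 0.1), -0.43 without both libraries and -0.46 (without SAH 7d-5) to 0.56 without single ones. Mthfd1l was 0.064 under limma voom, 0.067 without both libraries and -0.17 to 0.030 without single ones. Slc19a1 was -0.13 under limma voom, -0.043 with log2(FPKM + 1), filtered or not, -0.056 with log2(FPKM + 0.1), -0.11 without both libraries and -0.070 (without SAH 7d-5) to 0.12 without single ones.

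The sources used here do not say that the replicate numbers pair the rats. Deviations from the group means of same-numbered libraries correlated between -0.30 and 0.27 (18 pairs, 3 over 0.1). Differently numbered libraries were not compared, so these values cannot decide whether the numbers pair the rats. With the replicate block, SAH 7d versus SAH 1d gave Psph -0.58 (edgeR adjusted p = 0.126), Shmt2 -0.94 (0.0941) and Mthfd2 -1.47 (0.147). Depth limits Shmt1 most, with 34 to 484 counts per library.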
